A study of Mus musculus with 20 samples.

Results

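The 9 genes described here encode the Wnt ligands Wnt3, Wnt3a, Wnt4, Wnt5a, Wnt5b, Wnt6, Wnt7b and Wnt8a and the R-spondin Rspo3. They were taken by name as the members of these ligand families with signal-dependent RNA in the series, out of 27998 gene rows in each of 3 single-cell experiments. Mouse embryonic stem cells (male, 129P2/OlaHsd) were profiled by droplet single-cell RNA-seq after combinations of signals, and by 13 bulk 3′ RNA-seq libraries. Wells, control wells included, were transfected with barcodelets, short synthetic RNAs that tag a treatment in the pooled library.

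In the germ layer experiment, cells released from GSK3 inhibitor XV and UO126 received 5 signals for 24 h, each switched on (plus) or blocked (minus), in all 32 combinations. RA was retinoic acid against CD 2665, a blocker of its receptors. Wnt was GSK3 inhibitor XV, which switches the pathway on inside the cell, against IWR1. Tgfb was Activin A against A8301, Bmp was Bmp4 against Dorsomorphin, and Fgf was Fgf2 against the MEK inhibitor UO126. All wells of the mesendoderm experiment first spent 24 h with Activin A, Fgf2 and GSK3 inhibitor XV, and with CD 2665 and Dorsomorphin to block RA and Bmp. They then received combinations of 7 signals, with Notch and Shh added. The mixed experiment crossed the 5 signals with a mesendoderm start (that same pre-treatment) or an undirected start (none), with 8 control wells per start. For those 2 later designs the compounds behind plus and minus were not identified from the sources at hand, and the signals alone are named. The bulk libraries were 3 of flow-sorted Foxa2GFPplus cells, 2 of Tdgf1GFPplus and 2 of Foxa2GFPminus cells, and 2 each of Barcodelet24h, Barcodelet72h and Untransfected cells. Replicate 2 of Foxa2GFPplus was not analysed here. The treatment of the sorted cells and the make of the GFP reporters are not given in the labels. The labels name the same strain for every sample but do not say whether both reporters and the unsorted cells share a line, so gate and reporter line cannot be told apart.

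Wnt ligands are secreted, lipid-modified proteins that bind Frizzled receptors with Lrp co-receptors. In the canonical branch this stops the destruction of beta-catenin by a complex that contains Axin and GSK3, and beta-catenin then acts with TCF/LEF factors on target genes such as Axin2. R-spondins bind Lgr receptors and hold back the ligases Rnf43 and Znrf3, which otherwise remove Frizzled from the cell surface. In the mouse embryo Wnt3 is needed for the primitive streak, where mesoderm and endoderm arise.

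Depth differed between experiments. In the germ layer experiment 4350 of 8421 cells were assigned, 70 to 230 per population, with 991630 to 3816595 unique molecular identifiers (UMIs) summed. In the mesendoderm experiment 2899 of 12781 cells were assigned, and the 300 wells with at least 5 cells held 27701 to 332644 UMIs. In the mixed experiment 4869 of 5944 cells were assigned, and 142 wells held 101140 to 2119355 UMIs. The experiments shared few cell barcodes, with 151 between germ layer and mesendoderm, 64 between germ layer and mixed, and 111 between mesendoderm and mixed. The bulk libraries held 2899646 to 14874469 reads in genes. The pluripotency factor Pou5f1 was detected in every population, at 65.5 to 553 CPM, counts put on the same total for every library, in the germ layer experiment. Of 3 blood markers, Ptprc and Hbb-bt had 0 UMIs there and Hba-a1 had 5. Fibroblast feeder markers were detected there, with 629 UMIs of Col1a1 and 256 of Dcn among 5 genes, which summed to 1.69 to 47.6 CPM per population. Their part in the results was not tested.

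By annotation (GENCODE vM21, mouse build GRCm38), the canonical ligands Wnt3 and Wnt3a lie at chr11:103774150-103817957 (Wnt3, plus strand) and chr11:59248033-59290752 (Wnt3a, minus strand). Wnt5a (chr14:28504750-28527448, plus strand) and Wnt5b (chr6:119432531-119544347, minus strand) are the pair best known for signalling outside the beta-catenin branch. Wnt4 lies at chr4:137277489-137299726 (plus strand), Wnt6 at chr1:74771892-74785322 (plus strand), Wnt7b at chr15:85535437-85582473 (minus strand) and Rspo3 at chr10:29452416-29535867 (minus strand). Wnt5a, Wnt6, Wnt7b and Rspo3 overlap an annotated antisense gene and Wnt5b overlaps Fbxl14 on the opposite strand. Rspo3 also overlaps Gm20276 on its own strand, where strand does not separate reads. How strand was treated in counting is not stated in the sources, so counts of those 5 genes may hold reads of the overlapping gene.

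The promoters of Wnt5b, Wnt6 and Wnt4 are shown as examples of ligands with large log2 changes with the Wnt or the Bmp signal. The window of Wnt3a, which had the largest change with Wnt, is not printed. Of the Wnt5b starts, the one printed is the one with matches to the strings below. It lies inside the gene and is not its outermost start. The sequences are from RefSeq (GRCm38.p6), each from 250 bases before to 50 bases after a gene start. The Wnt5b window is at chr6:119449337-119449636 (minus strand), the Wnt6 window at chr1:74771642-74771941 (plus strand) and the Wnt4 window at chr4:137277385-137277684 (plus strand). Capitals in the Wnt5b window mark CTTTGAT, a letter string read by TCF/LEF factors, and CACACCT, a string read by T-box factors, whose first bases lie 71 and 45 bases before the start.
Wnt5b: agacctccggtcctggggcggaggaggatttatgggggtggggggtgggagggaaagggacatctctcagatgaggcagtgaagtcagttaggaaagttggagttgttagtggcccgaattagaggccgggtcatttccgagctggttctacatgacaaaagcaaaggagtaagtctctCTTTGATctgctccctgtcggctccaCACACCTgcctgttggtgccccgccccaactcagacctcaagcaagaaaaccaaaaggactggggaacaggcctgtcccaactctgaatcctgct
Wnt6: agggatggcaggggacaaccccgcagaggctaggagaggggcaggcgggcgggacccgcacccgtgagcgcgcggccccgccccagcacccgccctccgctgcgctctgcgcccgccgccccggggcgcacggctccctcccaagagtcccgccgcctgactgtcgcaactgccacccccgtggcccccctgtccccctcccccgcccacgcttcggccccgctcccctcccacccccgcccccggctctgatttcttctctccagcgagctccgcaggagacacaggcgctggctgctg
Wnt4: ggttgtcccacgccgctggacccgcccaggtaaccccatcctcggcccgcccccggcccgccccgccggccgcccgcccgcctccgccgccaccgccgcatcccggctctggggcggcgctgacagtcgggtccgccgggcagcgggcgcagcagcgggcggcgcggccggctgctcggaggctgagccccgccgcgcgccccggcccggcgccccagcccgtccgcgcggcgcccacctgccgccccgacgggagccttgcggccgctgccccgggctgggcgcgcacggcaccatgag
These windows were searched on both strands for CTTTGAA and CTTTGAT (TCF/LEF), CACACCT, and AGGTCA repeated after 5 bases of any letter (retinoic acid receptors). CTTTGAT stands in 3.73% of the 32851 promoters of the table, CTTTGAA in 5.14%, CACACCT in 5.84% and the AGGTCA repeat in 0.00913%. The Wnt6 and Wnt4 windows, and those of Wnt3, Wnt3a and the other 2 Wnt5b starts, hold none of these strings. GC content was 55.0% in the Wnt5b window with the strings, 76.7% in that of Wnt6 and 84.3% in that of Wnt4, against a median of 52.7% over all promoters of the table. Wnt5a, Wnt7b and Rspo3 are named only, and no sequence is printed for Wnt8a. A match is a description of letters and not of a bound site.

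The first question of the germ layer experiment was which signal moved each ligand, averaged over the other 4. All 9 genes passed the filter on low counts, and 21 of 45 tests were called, 16 upwards and 5 downwards. Of all genes tested, 7.02% (Tgfb) to 43.1% (Bmp) were called for the 5 signals. A call is an adjusted p under 0.05 in edgeR's quasi-likelihood test with Benjamini-Hochberg adjustment over 10614 genes. Log2 changes carry standard errors, derived as the size of the change over the square root of the test's F value. They are approximate, most of all for genes with few UMIs. Each combination had 1 population, so the spread comes from the residuals of the additive model. In each of the 45 pairs of gene and signal, the plus and minus populations overlapped in level.

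**Figure D1:**
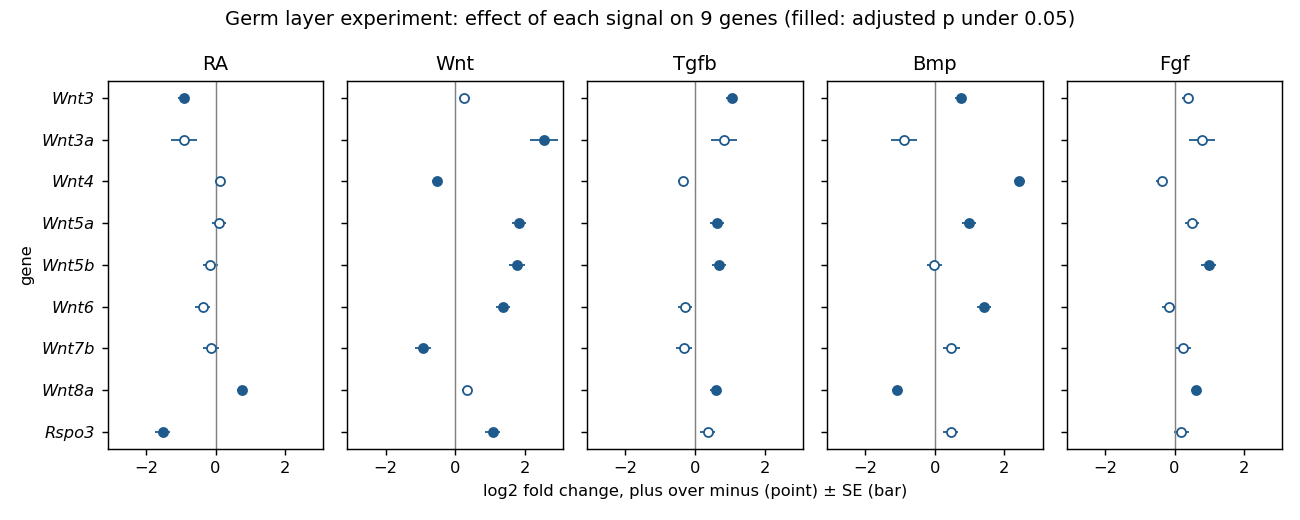
Log2 fold change of each of the 9 genes (rows) between plus and minus populations for each of 5 signals (columns), with the standard error as a bar; filled points passed an adjusted p under 0.05. Wnt3a, Wnt5a, Wnt5b and Wnt6 lie far to the right under Wnt, Wnt4 and Wnt6 under Bmp, and Rspo3 lies to the left under RA.

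The Wnt signal raised 5 ligands and lowered 2, while 23.9% of all tested genes were called for it. The median log2 change of the 9 was 1.07, against 0 over all genes. The 9 were taken for signal-dependent RNA in this series, so call shares and medians above those of all genes carry no test. Wnt3a, a tail bud ligand needed for posterior mesoderm, rose most. It had a lowest, median and highest level of 0.449, 2.2 and 14.6 CPM in the 16 Wnt plus populations and of 0, 0.462 and 1.34 CPM in the 16 Wnt minus ones. These levels rest on 130 UMIs in Wnt plus and 20 in Wnt minus populations, and the 6 populations without a UMI were all Wnt minus. The log2 change was 2.55 ± 0.41 (adjusted p = 1.47e-05).

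Wnt5a, which acts through Ror receptors in axis elongation, had 4.09, 13.7 and 34.2 CPM in Wnt plus and 0.702, 4.22 and 10.7 CPM in Wnt minus populations (1.84 ± 0.20, adjusted p = 1.44e-08). Its paralogue Wnt5b had 4.37, 17.1 and 39.1 CPM in Wnt plus and 0, 4.46 and 13.4 CPM in Wnt minus populations (1.77 ± 0.22, adjusted p = 1.62e-07). Wnt plus populations held all of the 8 highest levels of Wnt3a, of Wnt5a and of Wnt5b. Wnt6, a ligand of ectodermal epithelia, had 82.3, 211 and 373 CPM in Wnt plus and 16.0, 72.5 and 237 CPM in Wnt minus populations (1.37 ± 0.21, adjusted p = 5.34e-06). Rspo3 rose with Wnt as well, with 14.3, 52.1 and 130 CPM in Wnt plus and 8.71, 15.6 and 108 CPM in Wnt minus populations (1.07 ± 0.22, adjusted p = 0.000469).

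Wnt4 and Wnt7b went the other way. Wnt7b, a ligand known from lung and placenta, fell to 0.597, 2.31 and 6.73 CPM in Wnt plus populations, against 1.86, 4.28 and 11.4 CPM in Wnt minus ones (-0.93 ± 0.24, adjusted p = 0.00357). Wnt4, known from kidney and ovary development, had a median of 26.4 CPM in Wnt plus and 72.3 CPM in Wnt minus populations (-0.53 ± 0.15, adjusted p = 0.00686). Wnt3 (0.26 ± 0.16, adjusted p = 0.251) and Wnt8a (0.34 ± 0.15, adjusted p = 0.0948) did not pass the test.

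The Bmp signal raised 4 and lowered 1 of the 9, in a comparison that called 43.1% of all genes, so the share of members called (5 of 9) is close to that background. Wnt4 had the largest change. It had 29.2, 141 and 203 CPM in Bmp plus and 11.2, 24.0 and 47.8 CPM in Bmp minus populations (2.43 ± 0.15, adjusted p = 1.14e-14). All of its 8 highest populations were Bmp plus and none of its 8 lowest was. Wnt6 had 102, 185 and 373 CPM in Bmp plus and 16.0, 62.7 and 250 CPM in Bmp minus populations (1.41 ± 0.21, adjusted p = 1.57e-06). Wnt5a (0.98 ± 0.20, adjusted p = 0.000124) and Wnt3 (0.75 ± 0.16, adjusted p = 0.000226) also rose.

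Wnt8a, a ligand of the posterior epiblast and streak, was the member that fell with Bmp. It had 2.09, 5.61 and 14.7 CPM in Bmp plus and 3.36, 13.3 and 23.6 CPM in Bmp minus populations (-1.09 ± 0.15, adjusted p = 3.18e-07). Wnt3a (-0.88 ± 0.37, adjusted p = 0.0505) and Rspo3 (0.46 ± 0.22, adjusted p = 0.0955) did not pass the test.

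Surface ectoderm markers (Tfap2a, Gata3, Krt18) rose with Bmp in 3 of 3, and lateral mesoderm markers in 2 of 2 tested. Their summed levels did not overlap between the groups, at 498 to 1087 CPM in Bmp plus and 151 to 316 CPM in Bmp minus populations for surface ectoderm, and 141 to 404 against 14.9 to 46.6 CPM for lateral mesoderm. Caudal epiblast markers (Cdx1, Cdx2, Cdx4) rose with Wnt in 3 of 3, at 109 to 525 CPM in Wnt plus and 16.2 to 124 CPM in Wnt minus populations. Of 3 primitive streak markers 2 rose with Wnt, at 13 to 786 CPM summed in Wnt plus and 13.4 to 219 CPM in Wnt minus populations. The part of such shifts in cell type in the ligand changes was not tested. In a summed population, fewer cells of a type and less RNA per cell cannot be told apart.

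Retinoic acid lowered Rspo3 and Wnt3 and raised Wnt8a (27.7% of all genes called). Rspo3 had 8.71, 17.4 and 56.6 CPM in RA plus and 13.3, 60.3 and 130 CPM in RA minus populations, and no RA plus population was among its 8 highest. Its log2 change was -1.52 ± 0.22 (adjusted p = 2.86e-06). Wnt3 had 4.82, 20.4 and 44.7 CPM in RA plus and 15.3, 33.2 and 87.2 CPM in RA minus populations (-0.92 ± 0.16, adjusted p = 2.74e-05). Wnt8a had 2.46, 11.4 and 23.6 CPM in RA plus and 2.09, 5.34 and 17 CPM in RA minus populations (0.76 ± 0.15, adjusted p = 0.000219). Primitive streak markers (T, Mixl1, Eomes) fell with RA in 3 of 3, at 13 to 236 CPM summed in RA plus and 13.4 to 786 CPM in RA minus populations, and their part in the Wnt3 change was not tested. RA plus populations were also larger, with a median of 171 cells against 108.5 in RA minus ones.

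Activin A raised 4 members and lowered none (7.02% of all genes called). Wnt3 had 7.30, 42.4 and 87.2 CPM in Tgfb plus and 4.82, 18.1 and 31.9 CPM in Tgfb minus populations (1.05 ± 0.16, adjusted p = 1.74e-05), and its 8 highest populations were all Tgfb plus. Wnt8a (0.59 ± 0.15, adjusted p = 0.00916), Wnt5b (0.69 ± 0.21, adjusted p = 0.04) and Wnt5a (0.63 ± 0.20, adjusted p = 0.0409) rose less. The Wnt5a call was lost with DESeq2 (adjusted p = 0.0869) and with pairwise products in the model (0.0727). Primitive streak markers rose with Activin A in 3 of 3, at 14.8 to 786 CPM in Tgfb plus and 13 to 435 CPM in Tgfb minus populations. Their part in the rise of Wnt3 was not tested.

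The Fgf signal called 7.93% of all genes and 2 members, both upwards. Wnt5b had 2.11, 13.2 and 39.1 CPM in Fgf plus and 0, 5.92 and 17.5 CPM in Fgf minus populations (0.98 ± 0.22, adjusted p = 0.00408). Wnt8a had 2.09, 9.91 and 23.6 CPM in Fgf plus and 2.46, 7.68 and 14.3 CPM in Fgf minus populations (0.62 ± 0.15, adjusted p = 0.00855).

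The combinations with the highest levels differed from ligand to ligand. Wnt5a (34.2 CPM, 82 UMIs) and Wnt5b (39.1 CPM, 94 UMIs) shared a highest population, the one with RA blocked and the other 4 signals on. Rspo3 was highest, at 130 CPM, with RA and Bmp blocked and Wnt, Tgfb and Fgf on. Wnt3 was highest, at 87.2 CPM, with Tgfb, Bmp and Fgf on and RA and Wnt blocked. Wnt4 reached 203 CPM with Bmp alone on, and Wnt6 reached 373 CPM with all but Tgfb on. Wnt8a peaked at 23.6 CPM with RA, Tgfb and Fgf on and Wnt and Bmp blocked. With 1 population per combination, neighbours in these orders have no spread of their own and were not tested against each other.

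The interactions asked whether a signal acted differently where a second signal was plus. Of 90 tests, 8 were called, 2 upwards and 6 downwards, and 4 of the 8 were in the pair of Wnt and Bmp (3.87% of all genes called for that pair). For Wnt6, the 8 populations with both signals had 148, 284 and 373 CPM, those with only Wnt of the pair 82.3, 159 and 250 CPM, and those with only Bmp of the pair 102, 154 and 237 CPM. The 8 with neither had 16.0, 30.5 and 43.0 CPM and lay below every other population. The log2 effect of Wnt was 0.68 ± 0.09 where Bmp was plus and 2.4 ± 0.12 where Bmp was minus, an interaction of -1.72 ± 0.15 (adjusted p = 1.57e-08).

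**Figure D2:**
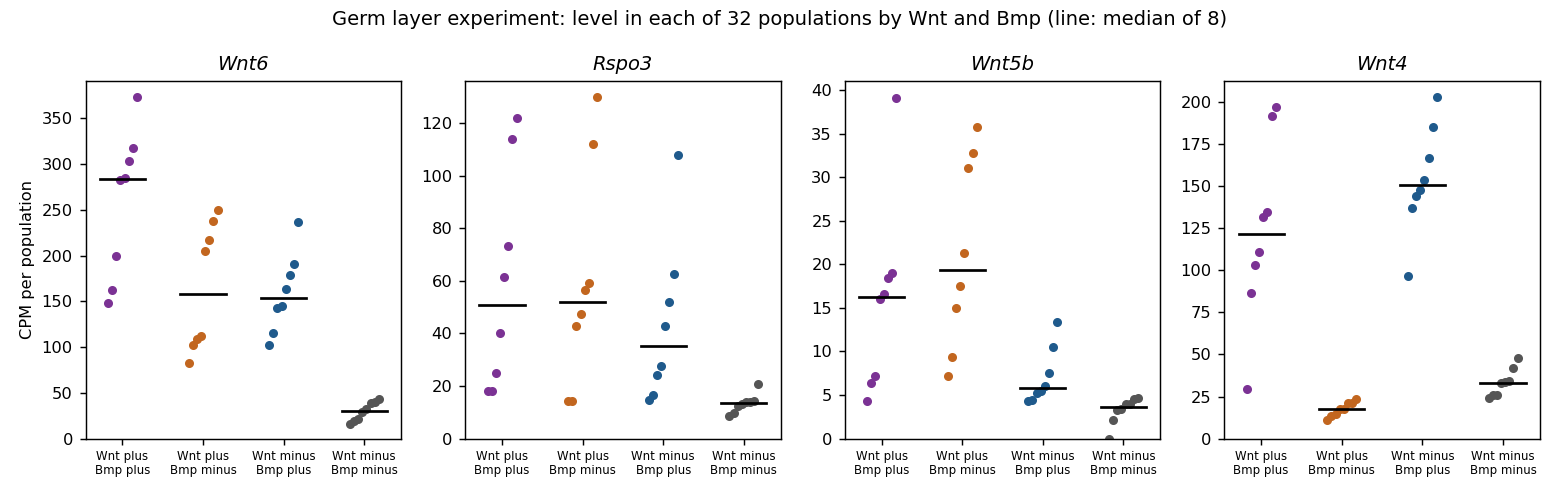
Level in CPM of Wnt6, Rspo3, Wnt5b and Wnt4 in each of the 32 germ layer populations, split by Wnt and Bmp into 4 groups of 8, with the median as a line. For Wnt6 all 8 populations with both signals blocked sit at 16.0 to 43.0 CPM, below the other 24; for Wnt4 the groups with Bmp on sit highest.

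For Rspo3, populations with neither signal also had the lowest median. It had 18.1, 50.8 and 122 CPM with both signals, 14.3, 52.1 and 130 CPM with Wnt alone, 14.5, 35.3 and 108 CPM with Bmp alone, and 8.71, 13.6 and 20.8 CPM with neither. The group with neither signal overlapped the others at its upper end. The effect of Wnt on Rspo3 was 0.32 ± 0.16 where Bmp was plus and 1.93 ± 0.20 where Bmp was minus (interaction -1.61 ± 0.26, adjusted p = 0.000208). Where Wnt was plus, the effect of Bmp was 0.72 ± 0.09 for Wnt6 and -0.13 ± 0.16 for Rspo3. For Wnt5b the effect of Wnt was 0.98 ± 0.21 with Bmp plus and 2.55 ± 0.24 with Bmp minus (-1.57 ± 0.32, adjusted p = 0.00309). For Wnt3 it was -0.04 ± 0.11 and 0.65 ± 0.14 (-0.69 ± 0.17, adjusted p = 0.0171), a call lost with DESeq2 (adjusted p = 0.055).

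RA and Bmp interacted for Wnt6 and Wnt3 (3.01% of all genes called). Wnt6 had 115, 195 and 373 CPM with both, 16.0, 55.6 and 112 CPM with RA alone, 102, 155 and 318 CPM with Bmp alone, and 32.1, 124 and 250 CPM with neither. Within RA plus populations the Bmp plus and Bmp minus levels of Wnt6 did not overlap, while within RA minus populations they did. The effect of Bmp on Wnt6 was 2.16 ± 0.10 where RA was plus and 1.00 ± 0.11 where RA was minus (interaction 1.16 ± 0.15, adjusted p = 6.24e-06). For Wnt3 the effect of Bmp was 1.22 ± 0.13 and 0.29 ± 0.12 (0.93 ± 0.17, adjusted p = 0.00149).

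Wnt6 was also called in the pair of Tgfb and Bmp (3.01% of all genes), where the effect of Tgfb was -0.53 ± 0.09 with Bmp plus and 0.10 ± 0.12 with Bmp minus (-0.63 ± 0.15, adjusted p = 0.0121). The last call was Wnt3a in the pair of RA and Wnt (3.63% of all genes; -3.64 ± 0.81, adjusted p = 0.00772). It rests on few molecules, with 39 UMIs where both were on, 18 with RA alone, 91 with Wnt alone and 2 with neither. Wnt3a had 0.449, 1.34 and 5.83 CPM with RA and Wnt, against 1.04, 4.84 and 14.6 CPM with Wnt alone. Those 2 groups overlapped.

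Among themselves the 9 genes fell into loose groups over the 32 populations. On log2(CPM + 5), Pearson's r was 0.76 between Wnt3a and Wnt5b, 0.74 between Wnt5a and Wnt5b, 0.67 between Wnt5a and Wnt6 and 0.63 between Wnt6 and Rspo3. It was -0.66 between Wnt4 and Wnt8a and -0.57 between Wnt3a and Wnt7b. These values describe populations that share signals and a library, and carry no test. Among 7603 genes, those most like Wnt4 were Rbpms (0.938), Id4 (0.934) and Bambi (0.93), of which Id4 and Bambi are known Bmp-responsive genes. Those most like Wnt5a were Ass1 (0.782) and the Wnt targets Axin2 (0.775) and Lef1 (0.765). Wnt3 was most like Sat1 (0.858), Tor2a (0.838) and Igfbp3 (0.799). Wnt6 was most like Dsg2 (0.818), Cdk16 (0.81) and mt-Co2 (0.791). Rspo3 was most like St3gal6 (0.848), Naa60 (0.845) and BC023829 (0.842), and Wnt5b like Grsf1 (0.819), Sprr2a3 (0.817) and Ttc28 (0.803). Counts of Sprr2a3 are uncertain, since close paralogues can share its reads.

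Among other genes of the pathway, 7 of 8 target genes rose with the Wnt signal and none fell (23.9% of all genes called). Their median log2 change was 1.59, against 0 over all genes. Axin2, a feedback inhibitor, rose by 1.51 ± 0.09 (adjusted p = 3.15e-14), the factor Lef1 by 1.70 ± 0.13 (3.97e-12) and the inhibitor Nkd1 by 1.99 ± 0.15 (3.97e-12). Of the 11 other Wnt ligands 3 were tested and 1 rose, and of 3 tested R-spondin receptors and ligases 2 rose and 1 fell. Of 5 co-receptors 2 rose, and of 6 genes of Wnt secretion 1 rose and 1 fell. The other R-spondin that was tested fell. These lists are short and were not tested as sets against the share of all genes called. With Bmp (43.1% of all genes called), 5 of the 8 targets rose and 2 fell, led by the secreted inhibitor Dkk1 (1.92 ± 0.18, adjusted p = 2.15e-10). With RA (27.7% of all genes called), 4 of the 8 targets fell and none rose. RA raised the ligand Wnt2 (2.96 ± 0.41, adjusted p = 8.15e-07) and the Wnt carrier Wls (0.50 ± 0.07, adjusted p = 2.02e-06). With Activin A the Rspo3 receptor Lgr4 rose by 1.25 ± 0.11 (adjusted p = 6.98e-10).

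The mesendoderm experiment asked how the ligands responded once cells had been pushed towards mesendoderm for 24 h. Wells held few cells (median 7), and the filter on low counts left Wnt6 and Rspo3, for which 6 of 14 tests were called. Of all genes tested, 0.043% (Shh) to 39.6% (Wnt) were called for the 7 signals. Levels are CPM without TMM scaling, over the summed wells of a combination, with 62 or 63 combinations a side.

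Rspo3 fell with 3 signals. With RA (21.9% of all genes called) it had 0, 22.0 and 109 CPM in RA plus and 5.03, 73.0 and 427 CPM in RA minus combinations (-1.61 ± 0.14, adjusted p = 1.37e-24). With Bmp (29.3% called) it had 0, 28 and 175 CPM in Bmp plus and 0, 64.2 and 427 CPM in Bmp minus combinations (-1.40 ± 0.13, adjusted p = 2.25e-20). With Wnt (39.6% called) the values were 0, 26.1 and 311 CPM in Wnt plus and 0, 52.5 and 427 CPM in Wnt minus combinations (-0.96 ± 0.13, adjusted p = 1.02e-10). In each case the 2 sides overlapped. Primitive streak markers fell with RA in 2 of 2 tested, and their summed medians were 122 CPM in RA plus and 391 in RA minus combinations, with ranges of 16.7 to 432 and 48.1 to 810. With Bmp, lateral mesoderm markers rose in 2 of 2 tested, at a summed median of 189 CPM in Bmp plus (101 to 548) and 48.2 CPM in Bmp minus combinations (9.08 to 158). Surface ectoderm markers rose in 1 of 1 tested (medians of 188 and 114 CPM), and of 2 primitive streak markers 1 fell (medians of 180 and 281 CPM). With Wnt the same 2 markers rose, at a median of 333 CPM in Wnt plus (49.9 to 810) and 121 in Wnt minus combinations (16.7 to 738). Caudal epiblast markers rose with Wnt in 2 of 2 tested, at 140 to 1468 CPM in Wnt plus and 50.7 to 392 CPM in Wnt minus combinations. The part of these markers in the changes of Rspo3 and Wnt6 was not tested.

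Wnt6 rose with Wnt, with 0, 94.4 and 297 CPM in Wnt plus and 0, 36.6 and 146 CPM in Wnt minus combinations (1.14 ± 0.10, adjusted p = 1.78e-24). It fell with Bmp, with 8.69, 45.9 and 154 CPM in Bmp plus and 0, 74.5 and 297 CPM in Bmp minus combinations (-0.66 ± 0.10, adjusted p = 1.2e-09). The sides overlapped in both comparisons. Its fall with Tgfb (10.1% of all genes called; -0.31 ± 0.10, adjusted p = 0.029) was lost in wells with at least 10 cells (adjusted p = 0.103), with no filter (0.105) and with wells summed (0.0746). No member was called for Fgf (9.28% of all genes), Notch (1.16%) or Shh (0.043%), with 0 of 2 members at an unadjusted p under 0.05 in each, and DESeq2 called none of them either.

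Of 42 interactions 2 were called, both of Rspo3. Rspo3 had 0, 21.9 and 67.6 CPM with RA and Bmp, 0, 23.1 and 109 with RA alone, 5.03, 37.1 and 175 with Bmp alone, and 22.1, 127 and 427 with neither. The effect of RA was -0.91 ± 0.21 where Bmp was plus and -2.03 ± 0.18 where Bmp was minus (1.12 ± 0.29, adjusted p = 0.0172; 1.56% of all genes called). The effect of Tgfb was 0.61 ± 0.22 where Bmp was plus and -0.68 ± 0.19 where Bmp was minus (1.29 ± 0.27, adjusted p = 0.00367; 0.487% called). Among wells with at least 10 cells neither was called (adjusted p = 0.456 and 0.849).

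With no filter on low counts, all 9 genes entered and 15 tests were called. For RA (7.27% of all genes called without the filter), Wnt3 fell by 0.81 on the log2 scale (SE 0.15, adjusted p = 5.78e-06) and Wnt5a by 1.05 (SE 0.14, 3.21e-10). For Wnt (13.9% called), Wnt5b rose by 0.97 ± 0.12 (adjusted p = 1.04e-12), while Wnt4 (-1.25 ± 0.17, 3.07e-10), Wnt7b (-0.67 ± 0.14, 0.021) and Wnt3 (-0.49 ± 0.15, 0.011) fell. Wnt7b had 29 UMIs in all, and 104 of 125 combinations had none, so its standard error is only approximate. For Tgfb (2.8% called), Wnt3 rose, with a median of 21.4 CPM in Tgfb plus and 6.06 in Tgfb minus combinations (1.51 ± 0.15, adjusted p = 1.55e-18). For Bmp (7.6% called), Wnt4 (1.45 ± 0.18, 3e-12) and Wnt5a (0.90 ± 0.14, 2.26e-07) rose and Wnt3a fell (-1.13 ± 0.19, 7.1e-06; 30 UMIs in Bmp plus and 70 in Bmp minus combinations). Without the filter 2.09% of genes were called for Fgf, 0.058% for Notch and 0.0422% for Shh, and none was a member. All 8 Wnt target genes rose with Wnt, with a median log2 change of 1.3 against 0, led by Nkd1 (2.4 ± 0.08) and Axin2 (1.69 ± 0.06).

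The mixed experiment asked whether the response differed by start state. Wnt3a did not pass the filter, and 35 of 80 effect tests on the other 8 members were called, 17 upwards and 18 downwards. The share of all genes called ran from 4.14% (Tgfb, undirected start) to 41.1% (Wnt, mesendoderm start). For each gene, signal and start, plus and minus wells overlapped in level. Wells of the undirected start held fewer cells where Wnt was plus (median 14) than where it was minus (30.5). The part of cell number in the wells at 0 of low genes was not tested.

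**Figure D3:**
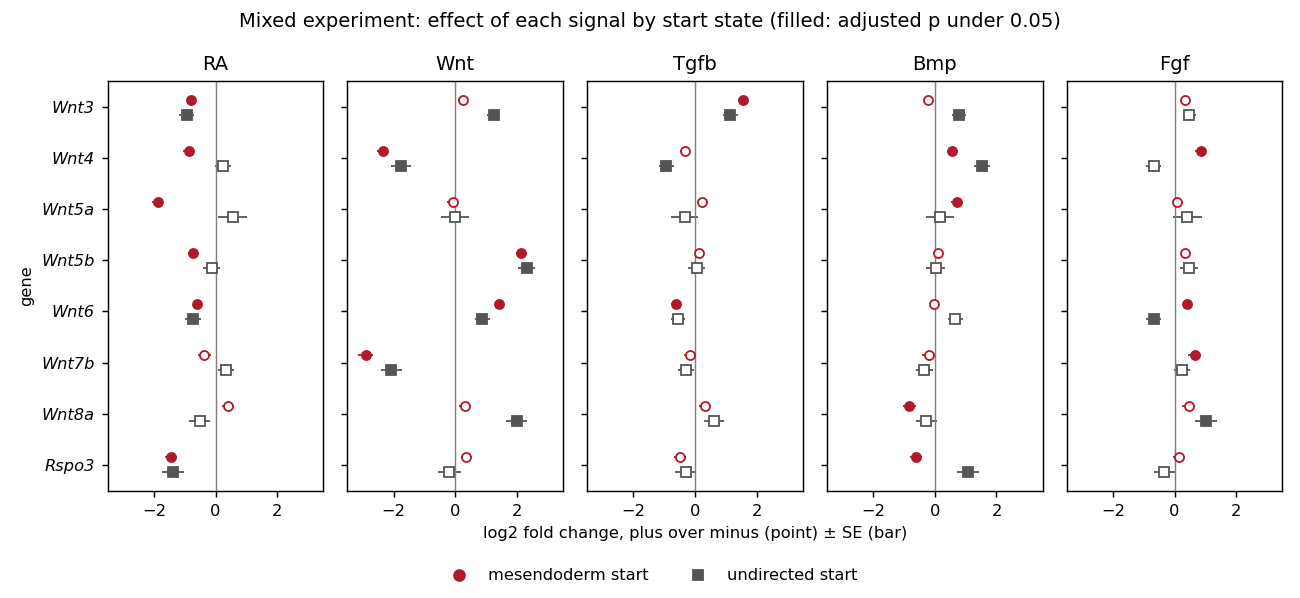
Log2 fold change of 8 genes (rows) between plus and minus wells for each of 5 signals (columns), from the mesendoderm start (circles) and the undirected start (squares), with standard errors; filled points passed an adjusted p under 0.05. Wnt5b and Wnt6 rise and Wnt4 and Wnt7b fall with Wnt from either start, while Wnt3 and Wnt8a rise with Wnt from the undirected start.

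With the Wnt signal, 2 members rose and 2 fell from the mesendoderm start (41.1% of all genes called), and 4 rose and 2 fell from the undirected start (36.1% called). Wnt5b had 7.0, 20.8 and 49.0 CPM in Wnt plus and 1.19, 5.03 and 11.0 CPM in Wnt minus wells from the mesendoderm start (2.13 ± 0.15, adjusted p = 1.64e-26), and rose by 2.32 ± 0.28 from the undirected start (adjusted p = 2.23e-12). Wnt6 rose by 1.43 ± 0.14 from the mesendoderm start (3.1e-17) and by 0.88 ± 0.24 from the undirected start (0.00176). Wnt4 had 0, 6.4 and 21 CPM in Wnt plus and 3.81, 33.5 and 134 CPM in Wnt minus wells from the mesendoderm start (-2.36 ± 0.19, 3.45e-23), with a change of -1.76 ± 0.31 from the undirected start (1.16e-06). Wnt7b had 0, 1.36 and 8.48 CPM in Wnt plus and 3.71, 11.1 and 30.3 CPM in Wnt minus wells from the mesendoderm start (-2.90 ± 0.24, 9.24e-22), and -2.08 ± 0.34 from the undirected start (1.74e-07). The 8 Wnt target genes rose from both starts, 8 of 8 each, with median log2 changes of 2.01 and 1.84. Caudal epiblast markers rose with Wnt in 3 of 3 from each start. Their summed medians were 544 CPM in Wnt plus and 90.0 CPM in Wnt minus wells from the mesendoderm start, and 262 and 53.4 CPM from the undirected start. Surface ectoderm markers fell in 2 of 3 from the mesendoderm start (122 CPM in Wnt plus and 247 CPM in Wnt minus wells) and in 3 of 3 from the undirected start (48.8 and 73.4 CPM). The part of these markers in the ligand changes was not tested.

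Wnt3 and Wnt8a differed by start. From the undirected start Wnt8a had 0, 5.66 and 29.3 CPM in Wnt plus and 0, 1.49 and 9.69 CPM in Wnt minus wells (1.99 ± 0.33, adjusted p = 1.37e-07), on 89 and 44 UMIs. Wnt3 rose by 1.24 ± 0.22 from that start (7.13e-07). From the mesendoderm start neither passed the test. The difference between the starts, mesendoderm less undirected, was -1.68 ± 0.38 for Wnt8a (adjusted p = 0.00134) and -1.0 ± 0.27 for Wnt3 (0.00876), among 7.77% of genes called for that difference. Both calls were lost with pairwise products in the model (adjusted p = 0.18 and 0.195).

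The RA signal lowered 6 of 8 members from the mesendoderm start (30% of all genes called) and 3 of 8 from the undirected start (34.3% called). Rspo3 had 0, 7.79 and 31.6 CPM in RA plus and 3.41, 24.6 and 125 CPM in RA minus wells from the mesendoderm start (-1.45 ± 0.19, adjusted p = 1.21e-10). From the undirected start it had 0, 3.04 and 16.7 CPM in RA plus and 0, 9.28 and 46.3 CPM in RA minus wells (-1.38 ± 0.37, 0.00175). Wnt3 fell by 0.78 on the log2 scale from the mesendoderm start (SE 0.16, 4.75e-05) and by 0.94 from the undirected start (SE 0.23, 0.000409). Wnt6 fell by 0.60 (SE 0.14, 0.000272) and by 0.73 (SE 0.25, 0.017). Wnt5b fell by 0.74 from the mesendoderm start (SE 0.15, 1.76e-05). Of 3 primitive streak markers 2 fell with RA from the mesendoderm start, with summed medians of 56.8 CPM in RA plus and 162 CPM in RA minus wells, and 3 fell from the undirected start (20.6 and 37.8 CPM). Of 3 pluripotency markers 2 fell from the mesendoderm start (465 CPM in RA plus and 635 CPM in RA minus wells) and 3 from the undirected start (540 and 897 CPM). Of 3 caudal epiblast markers 1 rose and 2 fell from the mesendoderm start, with summed medians of 357 CPM in RA plus and 141 CPM in RA minus wells. The part of these markers was not tested.

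The fall of Wnt5a with RA was called from the mesendoderm start alone, where it had 0, 5.00 and 26.0 CPM in RA plus and 1.90, 17.2 and 47.8 CPM in RA minus wells (-1.88 ± 0.18, adjusted p = 9.83e-17). From the undirected start Wnt5a had 40 UMIs in RA plus and 24 in RA minus wells in all, and its change was not called. The difference between starts was -2.44 ± 0.52 (adjusted p = 0.00068; 5.68% of all genes called). Wnt4 differed likewise (-1.12 ± 0.31, 0.0154), with a change of -0.87 ± 0.17 from the mesendoderm start (2.03e-05). With pairwise products in the model the Wnt5a difference was not called (adjusted p = 0.155).

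The Tgfb signal raised Wnt3 from both starts, by 1.55 ± 0.17 from the mesendoderm start (adjusted p = 1.67e-13; 6.96% of all genes called) and by 1.15 ± 0.23 from the undirected start (0.000141; 4.14% called). From the mesendoderm start Wnt3 had 5.03, 16.3 and 42.7 CPM in Tgfb plus and 0, 5.72 and 16.5 CPM in Tgfb minus wells. Wnt6 fell from the mesendoderm start (-0.63 ± 0.14, 0.000591), and Wnt4 fell from the undirected start (-0.93 ± 0.25, 0.0111), the Wnt4 call being lost with DESeq2 (0.0533) and with pairwise products (0.178). No gene of the table differed between the starts for Tgfb (0% called in edgeR), 1 member had an unadjusted p under 0.05, and DESeq2 called no member.

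The Bmp signal raised Wnt4 from both starts, by 0.57 ± 0.17 from the mesendoderm start (adjusted p = 0.016; 10.7% of all genes called) and by 1.53 ± 0.26 from the undirected start (5.95e-06; 7.81% called). The call from the mesendoderm start was lost with DESeq2 (0.15) and with wells summed (0.0605). Wnt5a rose (0.71 ± 0.18, 0.00255) and Wnt8a fell (-0.82 ± 0.21, 0.00255) from the mesendoderm start, and Wnt3 rose from the undirected start (0.79 ± 0.22, 0.0121). The 2 Rspo3 changes with Bmp had opposite signs. From the mesendoderm start it had 0, 15.6 and 71.5 CPM in Bmp plus and 0, 17.3 and 125 CPM in Bmp minus wells (-0.60 ± 0.19, 0.0217). From the undirected start it had 0, 8.05 and 46.3 CPM in Bmp plus and 0, 4.18 and 22.8 CPM in Bmp minus wells (1.08 ± 0.36, 0.0407). Both calls were lost under 3 alternatives. The change from the mesendoderm start was -0.43 with DESeq2 (0.284), -0.33 with pairwise products (0.213) and not called with wells summed (0.114). That from the undirected start was 0.58 with pairwise products (0.389), and was not called in wells with at least 10 cells (0.0723) or with wells summed (0.115). The difference was -1.68 ± 0.40 (adjusted p = 0.0271; 0.193% of all genes called), and it was lost with DESeq2 (0.0892), in wells with at least 10 cells (0.0525), with wells summed (0.162) and with pairwise products (0.427).

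With Fgf, 3 members rose from the mesendoderm start (13.6% of all genes called), and 1 rose and 1 fell from the undirected start (13.3% called). Wnt4 rose by 0.85 ± 0.18 from the mesendoderm start (adjusted p = 0.000164), while its change from the undirected start was -0.68 and not called (0.0541). Wnt6 rose by 0.41 ± 0.14 from the mesendoderm start (0.0361) and fell by 0.68 from the undirected start (SE 0.24, 0.044), and DESeq2 called neither (0.0658 and 0.0703). Nor were they called with wells summed (0.0842 and 0.12), the first in wells with at least 10 cells (0.0511) or the second with pairwise products (0.219). Wnt7b rose from the mesendoderm start (0.65 ± 0.21, 0.0259), but its change was 0.17 with pairwise products (0.835), and the call was also lost with DESeq2 (0.0953) and with wells summed (0.0564). Wnt8a rose from the undirected start (1.02 ± 0.35, 0.0341), a call lost in wells with at least 10 cells (0.0891) and with wells summed (0.0627). The differences between starts were 1.53 ± 0.31 for Wnt4 (0.00121) and 1.09 ± 0.28 for Wnt6 (0.0212), among 1.47% of genes called. The Wnt4 difference was lost with pairwise products (0.187) and the Wnt6 difference with wells summed (0.0808).

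**Figure D4:**
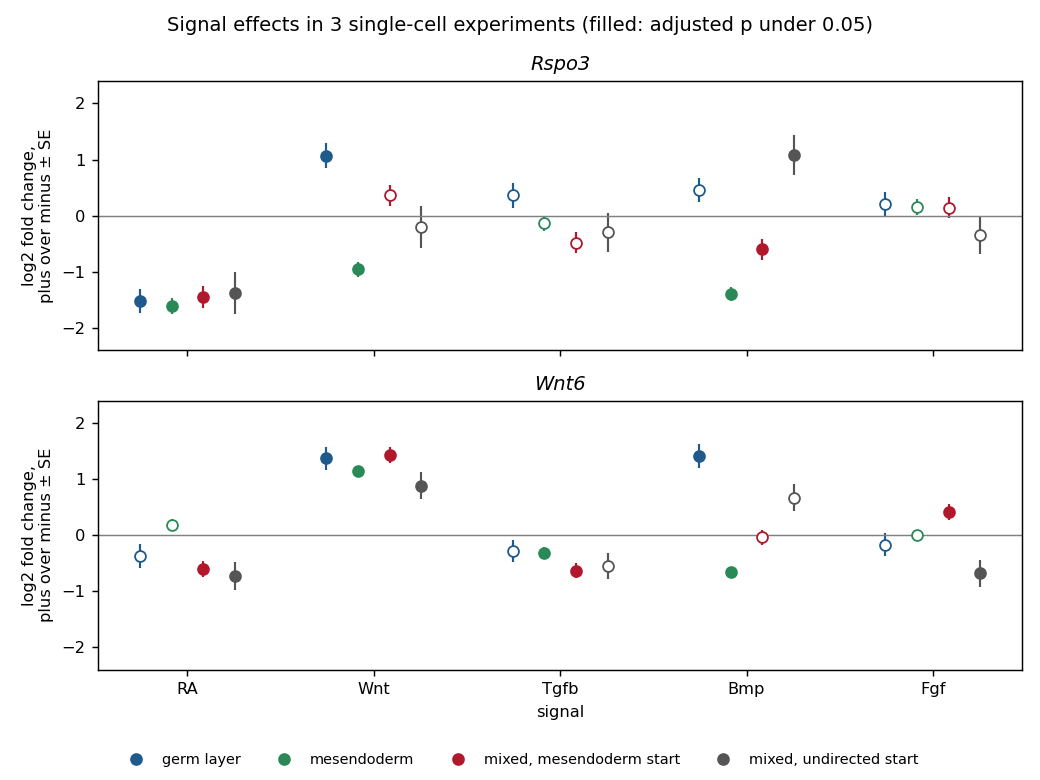
Log2 fold change of Rspo3 (top) and Wnt6 (bottom) between plus and minus for 5 signals in the germ layer, mesendoderm and mixed experiments, with standard errors; filled points passed an adjusted p under 0.05. Rspo3 falls with RA in all 4 settings, by 1.38 to 1.61 on the log2 scale, and Wnt6 rises with Wnt in all 4, by 0.88 to 1.43, while the signs under Bmp differ.

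The settings can be laid side by side for Rspo3 and Wnt6, which were tested in all of them. The RA effect on Rspo3 was -1.52, -1.61, -1.45 and -1.38 in the germ layer, mesendoderm, mixed mesendoderm-start and mixed undirected-start fits, called in each. Its Bmp effect was 0.46, -1.40, -0.60 and 1.08 in the same order, with the calls in the last 3, of which those from the mixed starts were each lost under 3 alternatives. Its Wnt effect was 1.07 in the germ layer and -0.96 in the mesendoderm fit, both called, and was not called from either start of the mixed experiment. The Wnt effect on Wnt6 was 1.37, 1.14, 1.43 and 0.88, called in each. Differences between experiments were not tested.

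Levels also differed by start. In control wells, 5 members were higher from the mesendoderm start (8.57% of all genes called). Rspo3 had 14.0, 33.8 and 50.7 CPM in the 8 mesendoderm control wells and 3.73, 9.12 and 16.4 CPM in the 8 undirected ones (1.93 ± 0.39, adjusted p = 0.000102). Wnt5a had 5.26, 12.6 and 22.0 CPM against 0, 2.54 and 4.43 CPM in the undirected ones, with no overlap (2.57 ± 0.48, 2.26e-05). Wnt4 had 13, 24.0 and 36.2 CPM in mesendoderm and 2.68, 9.05 and 15.5 CPM in undirected control wells (1.59 ± 0.39, 0.00201). Wnt6 (1.51 ± 0.41, 0.00638) and Wnt8a (1.96 ± 0.49, 0.00261) were higher as well. Averaged over treated wells, 6 members were higher from the mesendoderm start (25.6% of all genes called), among them Wnt5a (2.23 ± 0.23, 6.12e-15), Rspo3 (1.34 ± 0.21, 1.11e-07), Wnt5b (1.24 ± 0.16, 3.77e-10) and Wnt6 (1.10 ± 0.14, 3.78e-11). Wnt8a (0.85 ± 0.21, 0.000796) lost its call with the barcodelet set in the model (0.0635). Primitive streak markers summed to 40.4 to 95.0 CPM in mesendoderm and 10.7 to 49.4 CPM in undirected control wells, and their part was not tested.

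Against their own control wells, treated wells of the mesendoderm start had less Rspo3 (-0.97 ± 0.22, adjusted p = 0.000479) and less Wnt4 (-0.67 ± 0.23, 0.028), and more Wnt5b (1.25 ± 0.26, 0.000111) and Wnt6 (0.78 ± 0.22, 0.00573), among 15.5% of genes called. DESeq2 did not call the Wnt4 change (0.187). From the undirected start Wnt6 rose (1.19 ± 0.37, 0.0133), with 0, 14.3 and 73.3 CPM in 62 treated and 2.22, 7.44 and 21.4 CPM in 8 control wells, among 19.3% of genes called.

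Of 160 interactions within the starts 2 were called, both from the mesendoderm start. Rspo3 had 0, 19.1 and 125 CPM with Wnt and Fgf, 0, 11.4 and 45 CPM with Wnt alone, 3.41, 9.5 and 48.0 CPM with Fgf alone, and 3.38, 27.2 and 71.5 CPM with neither (16 wells each). The effect of Wnt on Rspo3 was 0.97 ± 0.21 where Fgf was plus and -0.89 ± 0.25 where Fgf was minus (1.86 ± 0.32, adjusted p = 6.02e-05; 0.34% of all genes called). For Wnt4 the effect of RA was -1.35 ± 0.22 where Bmp was plus and -0.12 ± 0.24 where Bmp was minus (-1.23 ± 0.29, adjusted p = 0.0295; 0.17% called), a call lost with DESeq2 (0.314).

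The sorted bulk libraries gave the ligand levels in cells gated by Foxa2, a factor of endoderm and axial mesoderm, and by Tdgf1, a co-receptor of the Nodal pathway. The Foxa2GFPplus library of replicate 1 stood apart from replicates 3 and 4. It had 5988930 reads in genes against 14874469 and 12839568, and caudal epiblast markers at 48.6 CPM summed, the lowest of the 3, against a highest of 343 CPM. It also had Wnt6 at 47.5 CPM against 7.27 and 11.2 CPM, and Wnt5a at 13.1 CPM against 51.9 and 63.3 CPM. The labels do not say that replicates are separate cultures, so p-values measure the spread between these libraries.

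Rspo3 was highest in Foxa2GFPplus cells. It had 202, 272 and 271 CPM in the 3 Foxa2GFPplus libraries, 16.3 and 19.4 CPM in the Tdgf1GFPplus libraries, and 91.5 and 59.6 CPM in the Foxa2GFPminus libraries. The groups did not overlap, and CPM of the bulk libraries are scaled by TMM. Against Tdgf1GFPplus the change was 3.8 ± 0.35 (adjusted p = 0.000189), in a comparison that called 10.2% of all genes and 3 of 9 members. Against Foxa2GFPminus it was 1.72 ± 0.31 (adjusted p = 0.0178), the only member called, with 2.39% of all genes called. This second call was lost without Foxa2GFPminus replicate 1 (2.08, adjusted p = 0.0677), without Foxa2GFPminus replicate 2 (1.45, 0.267) and without Foxa2GFPplus replicate 3 (1.65, 0.0507). The change against Tdgf1GFPplus was called in each of the 7 fits that left out 1 library. In fits that left a group with 1 library, that library was assumed to vary like the other groups. The change was 3.92 (1.29e-07) without Foxa2GFPplus replicate 1. In the 6 unsorted libraries Rspo3 had 0 to 6 reads.

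**Figure D5:**
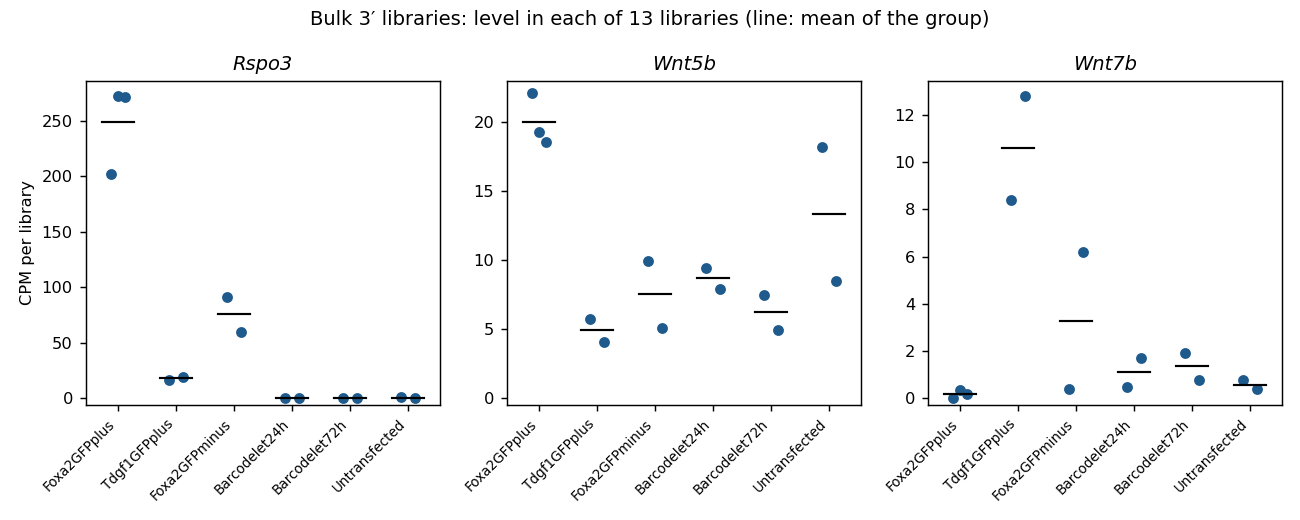
Level in CPM of Rspo3, Wnt5b and Wnt7b in each of 13 bulk libraries, by group, with the group mean as a line. Rspo3 sits at 202 to 272 CPM in the 3 Foxa2GFPplus libraries and near 0 in the unsorted ones, while Wnt7b is highest in the 2 Tdgf1GFPplus libraries.

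Wnt5b had 22.1, 19.3 and 18.6 CPM in Foxa2GFPplus and 5.74 and 4.09 CPM in Tdgf1GFPplus libraries, with no overlap (2.02 ± 0.45, adjusted p = 0.0193). The call was lost without Foxa2GFPplus replicate 3 (0.0604), Tdgf1GFPplus replicate 1 (0.109) or Tdgf1GFPplus replicate 2 (0.159). Wnt7b had 0, 7 and 3 reads in Foxa2GFPplus and 38 and 50 reads in Tdgf1GFPplus libraries, which is 0, 0.335 and 0.173 CPM and 8.39 and 12.8 CPM (-5.60 ± 1.08, adjusted p = 0.0103). Its call was lost without either Tdgf1GFPplus library (0.0613 and 0.0901), and in Foxa2GFPminus it had 1 and 17 reads. Wnt3a had 11, 119 and 86 reads in Foxa2GFPplus and 0 and 1 in Tdgf1GFPplus libraries, and its change was not called (4.96 ± 1.53, 0.0641). Tdgf1GFPplus against Foxa2GFPminus called no gene in edgeR (0%), and 1 member, Rspo3, had an unadjusted p under 0.05 (-2.08 ± 0.34, adjusted p = 0.151), while DESeq2 called 1 member, downwards, in 1% of all genes. Over the 3 comparisons 4 member tests were called, against 10 without Foxa2GFPplus replicate 1 and 2 without Foxa2GFPplus replicate 3. The shares of all genes called in those fits are not given, so these counts do not describe the members alone. Of 8 Wnt target genes 3 rose in Foxa2GFPplus against Tdgf1GFPplus cells, led by Nkd1 (3.14 ± 0.54, 0.00645). Endoderm markers, Foxa2 among them by the sort, summed to 214 to 346 CPM in Foxa2GFPplus, 7.16 to 39.7 CPM in Tdgf1GFPplus and 8.0 to 14.6 CPM in Foxa2GFPminus libraries. Primitive streak markers summed to 526 to 636, 143 to 176 and 191 to 228 CPM in the same groups, and their part was not tested.

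Transfection with barcodelets was compared for Wnt3 and Wnt5b, the members that passed the filter in the unsorted libraries. Wnt3 had 7.16 and 9.99 CPM at Barcodelet24h, 5.35 and 3.66 CPM at Barcodelet72h, and 10.6 and 10.8 CPM in Untransfected cells. Wnt5b had 9.47 and 7.93 CPM, 7.48 and 4.97 CPM, and 18.2 and 8.49 CPM in the same groups. The Wnt3 levels at 72 h lay below all Untransfected ones, but no change was called by edgeR, with -1.23 ± 0.36 for Wnt3 (adjusted p = 0.815) and -1.08 ± 0.38 for Wnt5b (0.893) at 72 h. The shares of all genes called were 0.0344% for 24 h against Untransfected, 0.0258% for 72 h against Untransfected and 0% for 72 h against 24 h. At an unadjusted p under 0.05 there were 0, 2 and 1 members in these comparisons, and DESeq2 called 0.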

How the data were processed

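The 3 single-cell experiments were deposited by the authors as UMI counts per gene and cell with tables that assign cells to barcodelets, and the bulk libraries as read counts per gene. Per the submitters' processing notes the build was mm10 and the named tools were HTSeq 0.9.1, STAR 2.5.2b and Cell Ranger 1.3.1. Barcodelet assignments were used as deposited, and no doublet caller was run. UMIs of the assigned cells were summed per population or well, keeping wells with at least 5 cells. CPM are TMM-scaled in the germ layer, mixed and bulk sets, and unscaled over the summed wells of a combination in the mesendoderm set.

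Tests were edgeR 4.0.16 quasi-likelihood fits in R 4.3.3 over all genes left by filterByExpr, with signals coded so that each coefficient is the plus level less the minus level, and Benjamini-Hochberg adjustment over all genes. Interactions came from models with pairwise products. Alternatives were DESeq2 1.42.0, no filter, RLE size factors, wells with at least 10 cells, wells summed, pairwise products, a replicate block, and leaving out each bulk library. Of 54146 bulk gene IDs, 52480 matched a symbol. Tables were written with Python 3.11.15, numpy 2.4.6 and pandas 2.3.3.

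The members and gene lists were chosen with earlier results of these data known. The members are named throughout, and other genes are the 3 most like each of 6 members with a mean of at least 10 CPM, and the lists' genes with the smallest p. Cells of a well share their culture, so no test was run over cells.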

Additional observations from a re-analysis of the deposited data

Results flagged for a closer look

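In 4 of the 18 groups of control wells examined, the highest of the 8 undirected control wells stood far from the other 7. These highest levels were 1.17 CPM for Wnt3a, 7.6 CPM for Wnt5b, 21.4 CPM for Wnt6 and 8.71 CPM for Wnt8a. The Wnt3a value is a single UMI, with the other 7 wells at 0. Chance gives such a gap in about 1 in 20 groups of normally distributed values. These levels rest on few UMIs, so that rate need not hold here.

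For 7 pairs of gene and signal, the effect was called as different between the mesendoderm and the undirected start. The test was of the difference itself, mesendoderm less undirected on the log2 scale. The differences were -1.68 for Rspo3 with Bmp, -1.12 for Wnt4 with RA, -2.44 for Wnt5a with RA, -1.0 for Wnt3 with Wnt and -1.68 for Wnt8a with Wnt. They were 1.53 for Wnt4 with Fgf and 1.09 for Wnt6 with Fgf. Of all genes, 0.193% were called for the difference with Bmp, 1.47% with Fgf, 5.68% with RA and 7.77% with Wnt. Every one of these member calls except that of Wnt4 with RA was lost under at least 1 alternative. Wnt5a and Wnt8a rest on few UMIs in undirected wells.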

How the results depend on the processing

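No call on a member changed sign under any alternative run. With no filter on low counts the calls were 15 against 6 for mesendoderm effects, 7 against 2 for mesendoderm interactions, 11 against 7 for differences between starts, 16 against 2 for mixed interactions and 9 against 4 in the sorted libraries. Mesendoderm interactions gave 0 calls in wells with at least 10 cells and 4 with wells summed. Differences between starts gave 3 with pairwise products. DESeq2 gave 1 mixed interaction and 8 calls in the sorted libraries, and all 13 libraries in 1 fit gave 9. Leaving out 1 bulk library gave 2 to 10 calls in the sorted set and 0 in the transfection set. The replicate block gave 0 calls in the transfection set. In the sorted set the numbers 3 and 4 occur only in Foxa2GFPplus, so the block left its level to replicate 1 alone. In that fit Foxa2GFPplus against Tdgf1GFPplus was 1.83 for Wnt5b and -8.64 for Wnt7b, which had 0 reads in Foxa2GFPplus replicate 1. Libraries with the same number did not deviate together (correlations of -0.157 to 0.109), so the numbers are taken as names. Of single calls in the germ layer experiment, DESeq2 kept 27 and lost 2. In the mixed experiment DESeq2 kept 51 and lost 9, pairwise products kept 48 and lost 10, and wells summed kept 51 and lost 9. The barcodelet set as a model term, an alternative chosen after seeing the data, kept 59 and lost 1. The causes were not tested. The filter on low counts left 2 of the 9 members in mesendoderm wells and 8 in mixed wells. The counts of member calls above stand without the share of all genes called in each fit, which can move as well. For mesendoderm Wnt that share was 39.6% with the filter and 13.9% without it.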
